A study of Mus musculus with 6 samples.

Results

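Interferon-stimulated genes were examined in cultured CD31-positive cells of mouse liver, across 3 libraries labelled male and 3 labelled female. The set holds 49 genes chosen by name: interferon receptor chains, STAT and IRF transcription factors, nucleic acid sensors, genes of ISG15, ubiquitin and ADP-ribose transfer, antiviral effectors and GTPases. Of these, 48 have a row among the 13595 genes of the deposited table, and 47 passed the filter on low values among 12568 genes tested. Rnf213, a large ubiquitin ligase, was not analysed here. Mx1 has a row but lay below the filter.

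The mice were C57BL6/J animals aged 4 weeks, and CD31 is a surface protein used to select endothelial cells. All 6 libraries came from cells that had received 100 µM indoxyl sulfate and 6 hours of hypoxia with nutrient deprivation. Indoxyl sulfate is a tryptophan metabolite that activates the aryl hydrocarbon receptor, and the study asks how that activation under hypoxia differs between sexes. Since each library carries both the agent and the hypoxia, the only contrast is that of labelled sex, and the vehicle-treated cells of the design were not analysed here. Each group has replicates 4, 5 and 6, and the labels do not say whether these were separate animals or separate wells. The p-values therefore measure only the spread between these samples, which may be technical.

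Type I interferons bind a receptor made of Ifnar1 and Ifnar2, whose kinases phosphorylate STAT factors such as Stat2. With Irf9 these bind the interferon-stimulated response element (ISRE) in the promoters of their targets, while STAT pairs formed under interferon gamma bind gamma-activated sites (GAS). Many of the targets are themselves sensors and factors of the pathway, and endothelial cells both respond to interferon and make it on viral infection.

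The libraries held from 22303270 to 31189363 reads in total, and 3 reads correspond to a value of 0.106 to 0.142. Values below are normalised read counts, that is, reads divided by 1 factor per library. Xist ran from 0.124 to 0.458 in the libraries labelled male and from 234 to 324 in those labelled female. Y-linked genes were nevertheless read in every library labelled female, Ddx3y at 48.5 to 57.7 against 47.2 to 76.3 and Kdm5d at 17.6 to 20.8 against 30.7 to 37.5. These reads go against the label, so groups are named below by their label only.

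Of 12 endothelial markers 11 were tested, of which 9 were lower in the female-labelled libraries and 1, Eng, was higher. Pecam1, the gene of CD31, had values of 391 to 423 and 73.5 to 74.5, and Cldn5 stood at 3 reads or fewer in each female-labelled library. Their summed value was 2263 to 2362 in the male-labelled libraries and 1171 to 1232 in the female-labelled ones. Sinusoidal markers summed to 494 to 533 and 39.9 to 42.0, with Clec4g and Fcgr2b at 3 reads or fewer in every library. Lyve1 made up most of the male-labelled sum (469.7 to 513 against 4.37 to 5.48), and Gata4 went the other way (3.67 to 3.85 against 31.2 to 32.9). Cholangiocyte markers summed to 1649 to 2497 and 514 to 616, with Krt7 going the other way (1.30 to 2.61 against 8.31 to 10.9). Stellate, mural and fibroblast markers summed to 2891 to 3728 and 3572 to 4289, but 8 of the 13 tested were lower and 5 higher. The higher ones included the contractile genes Acta2 (45.9 to 134 against 1513 to 1887) and Myh11 (1.41 to 1.79 against 103 to 147), and the lower ones Col3a1 (1115 to 1553 against 205 to 242) and Pdgfra (56.0 to 60.7 against 16.3 to 19.5). Macrophage markers summed to 12.0 to 14.8 and 15.4 to 18.2, with Cd14 going the other way (4.44 to 4.94 against 2.08 to 2.41), and Marco, C1qa, C1qb, C1qc and Vsig4 stood at 3 reads or fewer throughout. Hepatocyte markers summed to 1.62 to 3.09 and 2.04 to 8.26, of which Apob made 0.664 to 1.87 and 1.66 to 7.84 while Alb went the other way (at least 0.572 against at most 0.0830), and the 12 markers of lymphocytes and plasmacytoid dendritic cells were not analysed here. The part of these marker differences in the results below was not tested. In bulk RNA, fewer cells of a type and less RNA per cell cannot be told apart.

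A single library stood apart in each group. In male-labelled replicate 4, 10.1% of all genes tested lay at least 0.5 log2 units (of value + 1) above or below the mean of replicates 5 and 6, and 7 of the 47 interferon-stimulated genes did so (14.9%). Female-labelled replicate 6 stood apart in the interferon-stimulated genes themselves: 35 of the 47 (74.5%) were at least 0.5 log2 units above the mean of replicates 4 and 5, against 1.16% of all genes tested. Results on the interferon-stimulated genes that rest on either library are given with and without it.

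Most interferon-stimulated genes were lower in the female-labelled libraries. In limma at an adjusted p under 0.05, 37 of the 47 tested were lower, where 34.6% of all genes tested were lower. A further 2, Irf3 and Eif2ak2, were higher, where the share among all genes tested was 34.6% as well. The remaining 8 did not pass: Ifih1, Trim25, Rsad2, Ifit1, Ifit2, Ifi35, Ifi27 and Irgm2. Each fold change is a difference of log2(value + 1) and comes out too small for weakly expressed genes. The median log2 fold change, female-labelled minus male-labelled, was -1.31 over the 47 and 0.01 over all 12568 genes. Requiring a change of at least 1 log2 unit left 29 lower, against 12.1% of all genes.

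The summed value of the 48 genes was 4966 to 5017 in the male-labelled libraries. In the female-labelled libraries it was 1594 to 2433, the highest being replicate 6. Taking single genes, all female-labelled libraries lay below all male-labelled ones for 38, against 37% of all genes tested. The 2 groups overlapped for 8, and for 2 the female-labelled libraries lay above, against 37.1% of all genes tested.

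**Figure D1:**
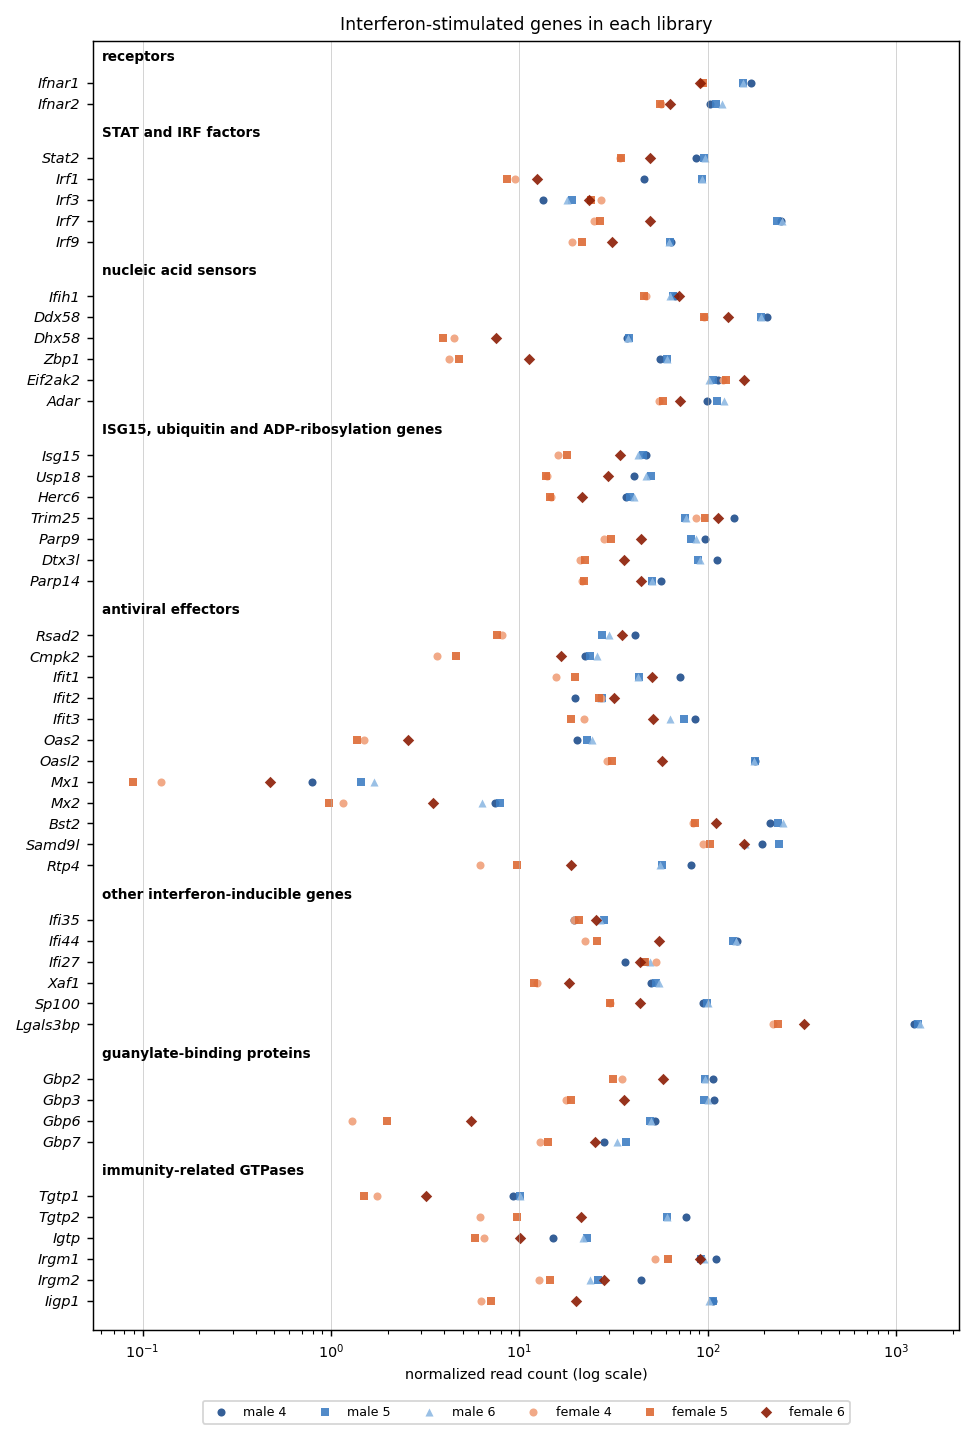
Normalised read count (log axis) of each of the 48 genes in each of the 6 libraries, 1 symbol per library, with male-labelled libraries in blue, female-labelled ones in orange to red and genes ordered by role. In 38 rows the 3 female-labelled libraries lie left of all male-labelled ones, and in most rows the dark diamond of female-labelled replicate 6 is the nearest of them to the male-labelled values.

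Both chains of the type I interferon receptor were lower in the female-labelled libraries. Ifnar1, the chain bound by the kinase Tyk2, had values of 169.7, 154 and 154 in male-labelled replicates 4, 5 and 6 and of 91.5, 94.1 and 91.3 in the female-labelled ones. The groups did not overlap, with means of 159 ± 9.17 and 92.3 ± 1.55 (SD, n = 3 each). Ifnar2, the chain bound by Jak1, had values of 103, 110.5 and 119 and of 56.3, 55.8 and 63.3. The 3 female-labelled libraries were again the lower ones, and replicate 6 stood close to the other 2 for both chains. By limma, the log2 fold change was -0.78 (SE 0.06, adjusted p = 9.97e-06) for Ifnar1 and -0.91 (SE 0.08, adjusted p = 1.59e-05) for Ifnar2.

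Of the 5 transcription factors, Stat2, Irf1, Irf7 and Irf9 were lower in the female-labelled libraries and Irf3 was higher. Stat2, which is part of the ISRE-binding complex with Irf9, had values of 87.1, 95.2 and 97.0 against 34.0, 34.4 and 49.2. Irf9, its DNA-binding partner, had values of 64.1, 63.1 and 62.3 against 19.1, 21.6 and 31.0. For both genes the groups were separate and female-labelled replicate 6 was the highest of its group. The log2 fold changes were -1.25 (SE 0.14, adjusted p = 6.33e-05, limma) and -1.39 (SE 0.15, adjusted p = 6.75e-05).

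Irf7, the factor that amplifies interferon alpha transcription, was read at 245, 234 and 249 in the male-labelled libraries and at 24.9, 26.7 and 49.4 in the female-labelled ones. The male-labelled mean was 7.21 times the female-labelled mean, and female-labelled replicate 6 was 1.92 times the mean of the other 2 of its group while far below the male-labelled values. The log2 fold change was -2.88 (SE 0.22, adjusted p = 8.39e-06, limma), the largest among the factors in absolute size on this scale. The order of Irf7 and Irf1 turned by edgeR, at -2.86 and -2.95, and by limma without male-labelled replicate 4, at -2.87 and -3.09.

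Irf1, a factor induced by interferon gamma through a GAS, had values of 45.7, 92.8 and 93.1 against 9.42, 8.58 and 12.3. Male-labelled replicate 4 was the low one of its group, at -1.01 log2 units against the mean of replicates 5 and 6, the lowest such ratio of the 47 genes. The groups did not overlap, and the log2 fold change was -2.76 (SE 0.26, adjusted p = 2.95e-05, limma). Irf3, which is present before infection and is switched on by phosphorylation, had values of 13.4, 18.9 and 18.0 against 27.1, 23.9 and 23.4. Here the female-labelled libraries were the higher ones without overlap, with a log2 fold change of 0.55 (SE 0.13, adjusted p = 0.00583, limma).

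The promoter of Irf1 is shown because it holds GAS letters in the 250 bases before the first of its annotated starts. The stretch is chr11:53769904-53769953 of GRCm38.p6, plus strand, from RefSeq, 5′ to 3′ on the strand of the gene. Capitals mark the letters TTCNNNGAA, the GAS core, which begin 90 bases before that start.
Irf1: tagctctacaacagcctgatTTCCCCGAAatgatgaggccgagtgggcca

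**Figure D2:**
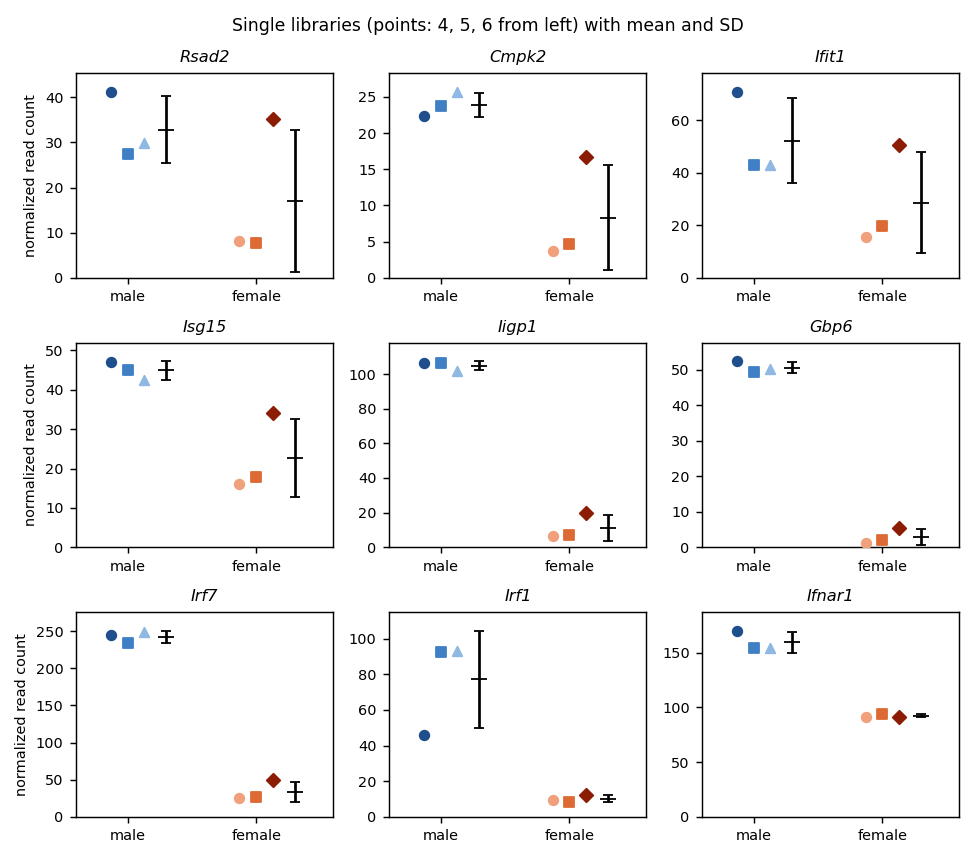
Normalised read counts of 9 genes in the male-labelled and female-labelled libraries, 1 point per library (replicates 4, 5 and 6 from left), with the group mean and SD (n = 3) beside them. The groups are separate for Ifnar1, Irf7, Irf1, Isg15, Cmpk2, Gbp6 and Iigp1, while female-labelled replicate 6 lies within the male-labelled range for Rsad2 and Ifit1.

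Of the 6 nucleic acid sensors, 4 were lower in the female-labelled libraries, 1 was higher and 1 did not pass. Zbp1, a sensor of Z-form nucleic acids that can start necroptosis, changed the most in absolute size. Its values were 56.0, 60.5 and 61.1 in the male-labelled libraries and 4.23, 4.77 and 11.2 in the female-labelled ones. The groups were far apart, and female-labelled replicate 6 was 2.49 times the mean of replicates 4 and 5. The log2 fold change was -3.07 (SE 0.28, adjusted p = 2.27e-05, limma).

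The RIG-I-like receptors, which bind viral RNA in the cytosol, gave log2 fold changes from -2.66 to -0.29. Dhx58 (LGP2), the regulator of the family, had values of 37.2, 38.4 and 37.9 against 4.48, 3.93 and 7.55, a log2 fold change of -2.66 (SE 0.19, adjusted p = 5.17e-06, limma). Ddx58 (RIG-I) had values of 207, 191 and 192 against 95.4, 95.9 and 128, a log2 fold change of -0.89 (SE 0.11, adjusted p = 0.000157). Both pairs of groups were separate, and the ratio of means was 7.11 for Dhx58 and 1.85 for Ddx58. Ifih1 (MDA5), named with the next gene after its values were seen, was read at 66.9, 65.7 and 63.1 against 46.7, 45.9 and 70.4. Female-labelled replicates 4 and 5 were below every male-labelled library and replicate 6 was above them all. The log2 fold change was -0.29 (SE 0.15, adjusted p = 0.120, limma) with all libraries and -0.49 (adjusted p = 0.000995) without replicate 6, in a range of adjusted p over all alternatives from 1.41e-05 to 0.358.

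Eif2ak2 (PKR), a kinase that halts translation when it binds double-stranded RNA, had values of 113, 106 and 101 against 119.9, 125 and 156. The female-labelled libraries were higher without overlap, replicate 6 most so, and the log2 fold change was 0.31 (SE 0.10, adjusted p = 0.0234, limma). This call was lost without female-labelled replicate 6 (0.20, adjusted p = 0.0558), without male-labelled replicate 5 (adjusted p = 0.0534) and without male-labelled replicate 6 (adjusted p = 0.0769), in a range of adjusted p from 0.00124 to 0.0769. Adar, which edits adenosines in double-stranded RNA, had means of 111 ± 11.4 and 61.5 ± 8.61 (SD, n = 3) and was lower (log2 fold change -0.85, adjusted p = 0.000196, limma).

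Among the 7 genes of ISG15, ubiquitin and ADP-ribose transfer, 6 were lower in the female-labelled libraries. Dtx3l, a ubiquitin ligase that works in a complex with Parp9, changed the most in absolute size. Its values were 112, 88.5 and 90.5 in the male-labelled libraries and 20.9, 22.3 and 36.0 in the female-labelled ones. The groups did not overlap, and the log2 fold change was -1.87 (SE 0.19, adjusted p = 4.4e-05, limma). In RefSeq gene order Parp14, Dtx3l and Parp9 are consecutive on chromosome 16, and all 3 were lower. Parp9 had a log2 fold change of -1.36 (adjusted p = 8.85e-05, limma) and Parp14, an ADP-ribosyltransferase, one of -0.90 (adjusted p = 0.00931).

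Isg15, the ubiquitin-like protein that is joined to targets under interferon, had values of 47.1, 45.1 and 42.5 against 16.0, 17.9 and 34.2. Female-labelled replicate 6 was 2.02 times the mean of replicates 4 and 5 but stayed below each male-labelled library. The log2 fold change was -1.03 (SE 0.24, adjusted p = 0.00469, limma). Usp18, the protease that removes ISG15 and also blocks the receptor, was lower too (log2 fold change -1.30, adjusted p = 0.00198), as was Herc6, the mouse ISG15 ligase (-1.17, adjusted p = 0.000121). Trim25, a ubiquitin ligase that acts on RIG-I, had values of 139, 75.3 and 76.4 against 86.9, 96.8 and 114. Its male-labelled replicate 4 was above every other library and replicates 5 and 6 were below every female-labelled one. The log2 fold change was 0.09 (adjusted p = 0.746, limma) with all libraries and 0.37 (adjusted p = 0.00527) without male-labelled replicate 4, in a range of adjusted p from 0.00149 to 0.959.

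Of the 11 antiviral effectors tested, 8 were lower in the female-labelled libraries and 3 did not pass. Oas2, which makes the oligoadenylates that activate RNase L, changed the most in absolute size. Its values were 20.3, 22.9 and 24.4 in the male-labelled libraries and 1.49, 1.37 and 2.56 in the female-labelled ones. The male-labelled mean was 12.5 times the female-labelled mean, and the log2 fold change was -3.09 (SE 0.17, adjusted p = 1.13e-06, limma). Oasl2, a related protein, had values of 177, 178 and 175 against 29.1, 31.1 and 57.5 (log2 fold change -2.21, adjusted p = 3.71e-05).

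Rsad2 (viperin) and Cmpk2 are next to each other on chromosome 12 in RefSeq gene order. Rsad2 turns CTP into a chain-terminating nucleotide and Cmpk2 is a nucleotide kinase of mitochondria that can supply CTP. Rsad2, described because of its spread, had values of 41.2, 27.5 and 29.8 in the male-labelled libraries and 8.09, 7.65 and 35.2 in the female-labelled ones. Replicates 4 and 5 of the latter were below every male-labelled library, while replicate 6 was within the male-labelled range. The means were 32.8 ± 7.34 and 17.0 ± 15.8 (SD, n = 3), and the log2 fold change of -1.23 (SE 0.49, adjusted p = 0.0514, limma) did not pass. Without female-labelled replicate 6 it was -1.91 (adjusted p = 0.000114), in a range of adjusted p over all alternatives from 4.08e-09 to 0.243. Cmpk2 had values of 22.4, 23.7 and 25.7 against 3.65, 4.60 and 16.7. Replicate 6 of the female-labelled libraries was 4.05 times the mean of the other 2 yet below the male-labelled range, and the log2 fold change was -1.69 (SE 0.43, adjusted p = 0.00762, limma).

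The Ifit genes, whose proteins bind viral RNA ends, gave 3 patterns. Ifit3 was lower, with values of 86.0, 75.1 and 62.7 against 22.0, 18.9 and 51.0 (log2 fold change -1.38, adjusted p = 0.00462, limma). Ifit1 had values of 70.8, 43.0 and 42.8 against 15.6, 19.6 and 50.6, so that female-labelled replicate 6 was above male-labelled replicates 5 and 6. Its log2 fold change was -0.99 (adjusted p = 0.0501, limma) and -1.48 without female-labelled replicate 6 (adjusted p = 0.00138), in a range of adjusted p from 1.58e-07 to 0.182. Ifit2, next to Ifit3 on chromosome 19, had values of 19.8, 27.5 and 27.1 against 27.1, 26.5 and 32.0. Its groups overlapped, and the log2 fold change was 0.21 (adjusted p = 0.209, limma). Of the 50-base words in Ifit3 transcripts, 51.2% also occur in those of another gene, Ifit3b, so that its value as a separate gene is uncertain.

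The remaining effectors tested were all lower in the female-labelled libraries: Bst2 (tetherin, which holds virions on the cell surface), Mx2 (a dynamin-like GTPase), Samd9l and Rtp4. Their log2 fold changes by limma were -1.32 for Bst2, -1.62 for Mx2, -0.75 for Samd9l and -2.50 for Rtp4, with adjusted p between 1.51e-05 (Bst2) and 0.00990 (Samd9l). Mx1 had values of 0.788, 1.45 and 1.70 against 0.125, 0.0884 and 0.475 and was too weak for the main test. Its groups did not overlap, but 2 of the female-labelled values came from 3 reads or fewer.

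Stretches of the promoters of Rsad2, Ifit1 and Isg15 are shown because they hold ISRE letters and female-labelled replicate 6 was high relative to its group for these genes. Each is 50 bases of GRCm38.p6 from RefSeq, 5′ to 3′ on the strand of the gene: chr12:26456543-26456592 on the minus strand for Rsad2, chr19:34640765-34640814 on the plus strand for Ifit1 and chr4:156200867-156200916 on the minus strand for Isg15. Capitals mark the ISRE core, read as GAAA, any 2 bases and GAAA on either strand, and overlapping matches are joined. The first match begins 120, 104 and 78 bases before the annotated start.
Rsad2: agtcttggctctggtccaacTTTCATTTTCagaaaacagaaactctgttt
Ifit1: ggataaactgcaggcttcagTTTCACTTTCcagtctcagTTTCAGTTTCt
Isg15: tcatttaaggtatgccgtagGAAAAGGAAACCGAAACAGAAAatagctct
The window of Isg15 held 3 ISRE matches, which overlap, that of Ifit1 held 2 and that of Rsad2 held 1. The window of Cmpk2, for which female-labelled replicate 6 was 4.05 times the mean of replicates 4 and 5, held 0.

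Promoter windows of 300 bases, from 250 before to 50 after the start, were matched for 36 of the 48 genes. ISRE letters on either strand were found in 17 of these 36 (47.2%), against 3.99% of the 27025 genes of the RefSeq table and 3.44% of its 32851 windows. GAS letters were found in 13 of the 36 (36.1%), against 9.55% of genes and 8.30% of windows, and 7 held both. The 17 genes with ISRE letters had a median log2 fold change of -1.23 and the 19 without them one of -1.39. A match is a description of letters in the window and not a bound site.

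Of the 6 other interferon-inducible genes, 4 were lower in the female-labelled libraries and 2 did not pass. Lgals3bp, a secreted glycoprotein, changed the most in absolute size. Its values were 1246, 1304 and 1339 in the male-labelled libraries and 221, 236 and 326 in the female-labelled ones. The groups were well separated, at a ratio of means of 4.97, and the log2 fold change was -2.33 (SE 0.13, adjusted p = 1.62e-06, limma). Ifi44 (log2 fold change -2.10, adjusted p = 0.000205), Xaf1, a pro-apoptotic protein (-1.84, adjusted p = 1.03e-05), and Sp100, a protein of PML nuclear bodies (-1.49, adjusted p = 2.25e-05), were lower too. The groups overlapped for Ifi35 (log2 fold change -0.16, adjusted p = 0.364) and for Ifi27 (0.13, adjusted p = 0.385). Without male-labelled replicate 4, Ifi35 had a log2 fold change of -0.32 (adjusted p = 0.0220), in a range of adjusted p from 0.000303 to 0.746.

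All 4 guanylate-binding proteins, GTPases that coat pathogens and their vacuoles, were lower in the female-labelled libraries. Gbp6 had values of 52.3, 49.3 and 50.1 in the male-labelled libraries and 1.29, 1.99 and 5.51 in the female-labelled ones. The groups were far apart, with means of 50.6 ± 1.59 and 2.93 ± 2.26 (SD, n = 3) and a ratio of 17.3, and the log2 fold change was -3.86 (SE 0.33, adjusted p = 1.45e-05, limma). This was the largest change in absolute size among the 47 genes. Of the 50-base words in its transcripts, 70.7% also occur in those of other genes (most in Gm43302 and Gbp10), so its value as a separate gene is uncertain. Gbp2, Gbp3 and Gbp7 had log2 fold changes of -1.30, -2.09 and -0.91, with adjusted p of 0.000433, 6.81e-05 and 0.00654.

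Of the 6 immunity-related GTPases, which disrupt the vacuoles of intracellular pathogens, 5 were lower in the female-labelled libraries. Iigp1 changed the most in absolute size, with values of 106, 106 and 102 in the male-labelled libraries and 6.27, 7.07 and 19.9 in the female-labelled ones. Replicate 6 was 2.98 times the mean of the other 2 female-labelled libraries and far below the male-labelled values. The means were 105 ± 2.59 and 11.1 ± 7.65 (SD, n = 3). The log2 fold change was -3.30 (SE 0.34, adjusted p = 4.88e-05, limma). Tgtp1 (-1.82, adjusted p = 4.52e-05), Tgtp2 (-2.48, adjusted p = 0.000290) and Igtp (-1.31, adjusted p = 0.000631) were lower as well. Tgtp1 and Tgtp2 share 81.2% and 86.6% of their 50-base words with other genes, mainly each other, and are uncertain as separate genes.

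Irgm1 and Irgm2, whose proteins regulate other members of the family, showed the smallest changes of it. Irgm1 had values of 110.1, 92.3 and 95.8 against 52.4, 61.4 and 91.3, with replicate 6 of the female-labelled libraries just below the lowest male-labelled one. Its log2 fold change was -0.57 (adjusted p = 0.0211, limma), and the call was lost without female-labelled replicate 4 (adjusted p = 0.0768) or 5 (adjusted p = 0.0745), in a range of adjusted p from 1.82e-06 to 0.0768. Irgm2 had values of 44.0, 26.1 and 23.6 against 12.8, 14.6 and 28.2. Female-labelled replicate 6 was above male-labelled replicates 5 and 6, and the log2 fold change was -0.75 (adjusted p = 0.0558, limma), or -1.09 without that library (adjusted p = 0.00807), in a range of adjusted p from 6.11e-06 to 0.195.

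Promoter stretches of 4 of these GTPases are shown because they hold a GAS and an ISRE at the same spacing. All are on chromosome 11 of GRCm38.p6, from RefSeq, 5′ to 3′ on the strand of the gene: chr11:58199502-58199551 (plus) for Igtp, chr11:58214893-58214942 (plus) for Irgm2, chr11:48992294-48992343 (minus) for Tgtp1 and chr11:49064253-49064302 (minus) for Tgtp2. The first run of capitals is the GAS core and the second the ISRE core, which begins 11 bases after the first letter of the GAS core in each.
Igtp: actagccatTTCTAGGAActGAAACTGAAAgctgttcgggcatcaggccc
Irgm2: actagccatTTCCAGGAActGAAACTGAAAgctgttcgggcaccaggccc
Tgtp1: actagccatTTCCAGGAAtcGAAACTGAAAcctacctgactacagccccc
Tgtp2: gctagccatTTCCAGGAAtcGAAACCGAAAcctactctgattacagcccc
The stretches of Igtp and Irgm2, which are neighbours, are identical at 48 of 50 bases, and those of Tgtp1 and Tgtp2 at 38 of 50. The male-labelled to female-labelled ratio of means ran from 1.69 for Irgm2 and 2.66 for Igtp to 4.57 for Tgtp1 and 5.33 for Tgtp2.

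**Figure D3:**
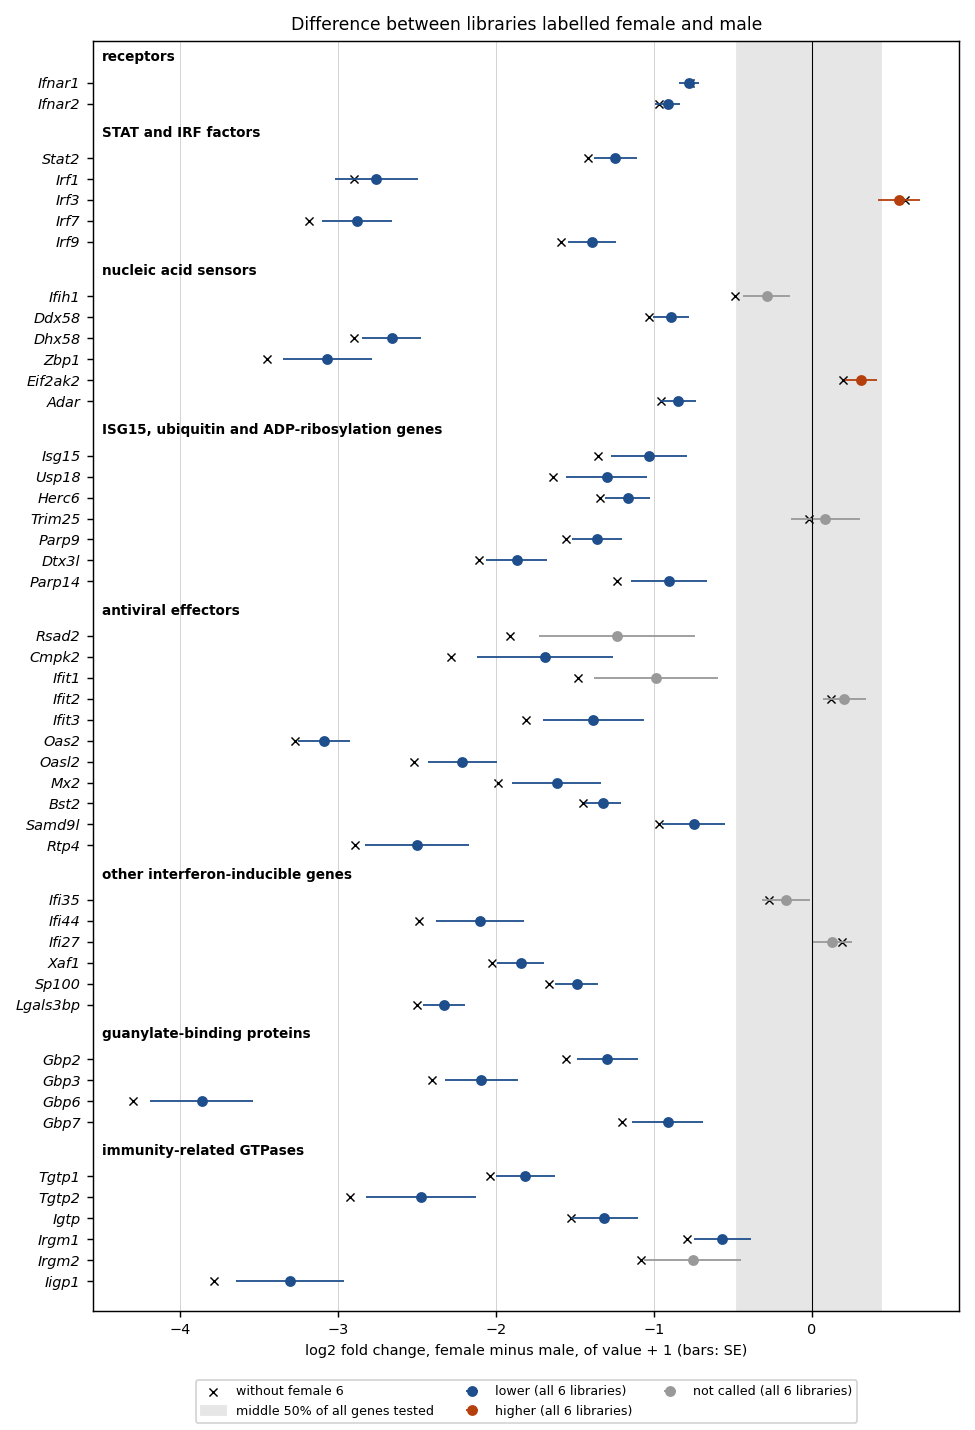
Log2 fold change of value + 1 (female-labelled minus male-labelled) of the 47 genes tested, grouped by role, with the SE from limma as a bar, colour for genes that were lower, higher or did not pass, crosses for the value without female-labelled replicate 6, and grey shading for the middle 50% of all genes tested. The genes reach from -3.86 for Gbp6 to 0.55 for Irf3, and most crosses lie left of their points.

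The spread between replicates was unequal in the 2 groups. The median coefficient of variation of the 47 genes was 7.09% over the male-labelled libraries and 31.6% over the female-labelled ones. Over all genes tested it was 9.82% and 6.24%, in the opposite order. Without female-labelled replicate 6 and male-labelled replicate 4, which leaves 2 libraries in each group, it was 2.93% and 6.11% for the 47 and 3.98% and 4.36% for all genes. The coefficient was larger among the female-labelled libraries for 40 of the 47 (85.1%), against 34.0% of all genes tested.

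Among the female-labelled libraries, replicate 6 was the highest of its group for 44 of the 47 genes (93.6%), against 40.0% of all genes tested, the exceptions being Ifnar1, Irf3 and Ifi27. Its median log2 ratio to the mean of replicates 4 and 5 was 0.67 for the 47 and 0.01 for all genes. Rsad2, at 4.47 times the mean of replicates 4 and 5 (2.03 log2 units of value + 1), had the highest such log2 ratio of all 12568 genes. The ratio of values was at least 2 for 15 of the 47 (31.9%), against 0.684% of all genes. Among the 100 genes with the highest ratio, 27 were of the 47 and 20 were other genes of the pathway.

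**Figure D4:**
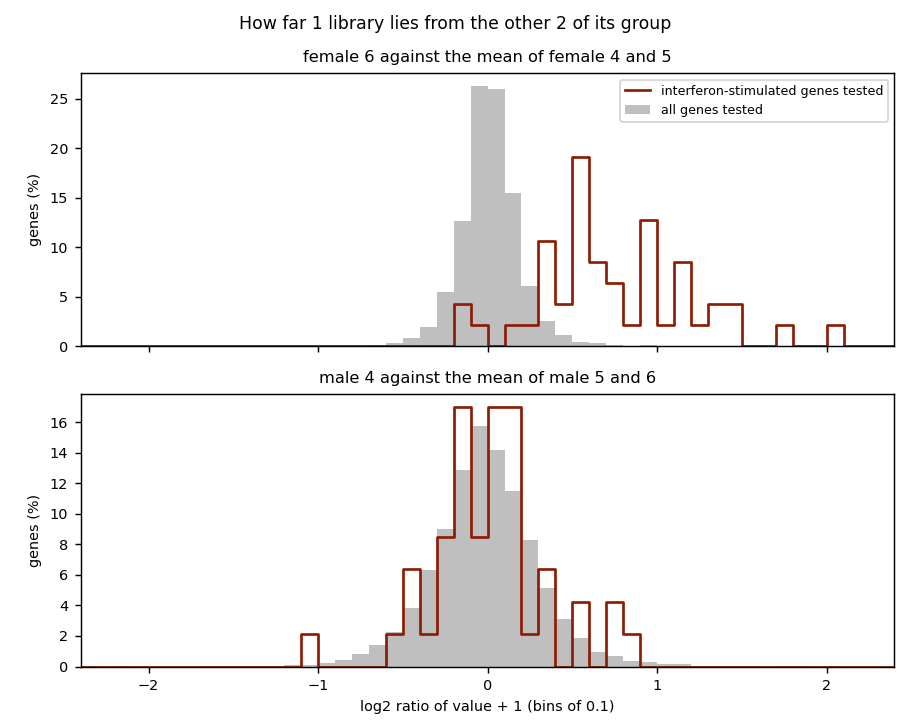
Percent of genes by log2 ratio of value + 1, in bins of 0.1, for female-labelled replicate 6 (top) and male-labelled replicate 4 (bottom) against the mean of the other 2 libraries of the group, with interferon-stimulated genes as a line and all genes tested in grey. The line is shifted to the right in female-labelled replicate 6 (median 0.67 against 0.01) and centred near 0 in male-labelled replicate 4 (median 0.02).

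The excess of this library was not even across roles. Its median log2 ratio was 0.07 for the receptor chains, 0.51 for the STAT and IRF factors and 0.51 for the sensors. It was 0.52 for the other interferon-inducible genes, 0.71 for the genes of ISG15, ubiquitin and ADP-ribose transfer, 0.83 for the immunity-related GTPases, 0.90 for the guanylate-binding proteins and 1.11 for the antiviral effectors. Genes with ISRE letters in the promoter window had a median of 0.78 (0.34 to 2.03, 17 genes), and those without had one of 0.52 (-0.12 to 1.79, 19 genes). For GAS letters the order was the opposite, with medians of 0.38 (13 genes) and 0.67 (23 genes without). The endothelial markers summed to 1171 in this library and to a mean of 1230 in the other 2. Its macrophage markers summed to 15.4 against a mean of 17.8, its sinusoidal markers to 39.9 against 41.1 and its hepatocyte markers to 2.04 against 7.25. Its cholangiocyte markers summed to 589 against 565, and its stellate, mural and fibroblast markers to 3572 against 4116. Of the markers tested, 5 of 11 endothelial, 1 of 3 sinusoidal, 4 of 7 cholangiocyte and 5 of 13 stellate, mural and fibroblast ones were above the mean of the other 2 libraries, while 0 of 3 macrophage ones and 0 of 1 hepatocyte one were. Those above included Krt19 (1.31 times) and Dcn (1.65 times). The sum of the interferon-stimulated genes was 1.49 times that of the other 2, and the part of these cell type markers in that excess was not tested.

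For 4 genes female-labelled replicate 6 reached or passed the male-labelled range while replicates 4 and 5 lay below it, namely Rsad2, Ifit1, Irgm2 and Ifih1. Leaving this library out moved the female-labelled mean by over 1.5 times for 8 genes. As a percent of the male-labelled mean it went from 51.7 to 24.0 for Rsad2, from 34.8 to 17.2 for Cmpk2, from 54.9 to 33.8 for Ifit1 and from 17.5 to 8.12 for Mx1. It went from 25.9 to 14.8 for Mx2, from 5.79 to 3.24 for Gbp6, from 18.8 to 12.1 for Tgtp2 and from 10.6 to 6.36 for Iigp1. The log2 fold changes by limma without it were -2.29 (Cmpk2), -1.99 (Mx2), -4.30 (Gbp6), -2.92 (Tgtp2) and -3.79 (Iigp1), and each passed.

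Without this library, 41 of the 47 genes were lower, against 33.1% of all genes tested, at a median log2 fold change of -1.56. Leaving out male-labelled replicate 4 as well, chosen after the data were seen, gave 42, against 37.3% of all genes tested.

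Other genes of the pathway were counted by list. Of 86 tested, 62 were lower in the female-labelled libraries, 6 were higher and 18 did not pass, with a median log2 fold change of -0.82. The shares among all genes tested were 34.6% lower and 34.6% higher. None of the 10 interferon genes of the ligand list was analysed here.

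The smaller lists lay nearer to those shares. Among 6 kinases and other receptor chains, 3 (50%) were lower and 1 was higher. Jak1 (log2 fold change -0.77, adjusted p = 6.12e-05, limma) and Jak2 (-0.36, adjusted p = 0.00550) were lower, and Tyk2 (0.37, adjusted p = 0.0126) was the higher one. The interferon gamma receptor chains Ifngr1 (-0.05, adjusted p = 0.652) and Ifngr2 (-0.03, adjusted p = 0.706) did not pass. Of 10 genes that induce interferon, 5 (50%) were lower and 1 was higher, and of 8 negative regulators 4 (50%) were lower and 2, Ptpn11 and Samhd1, were higher. The call of Samhd1 (0.24, adjusted p = 0.0466, limma) was lost without female-labelled replicate 6 (adjusted p = 0.144) and by edgeR (adjusted p = 0.0648), and its groups overlapped. The phosphatase Ptpn6 (-1.69, adjusted p = 0.000357, limma) and Socs3, which blocks the Jak kinases (-1.64, adjusted p = 4.38e-06), were lower and Ptpn11, another phosphatase, was higher (0.85, adjusted p = 0.000176).

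Of 54 other interferon-inducible genes, 43 were lower and 2, Ifi30 and Ifi27l2b, were higher. Female-labelled replicate 6 was the highest of its group for 48 of the 54 (88.9%), with a median log2 ratio to the other 2 of 0.46. Gbp9, with values of 92.9, 89.9 and 95.1 against 3.90, 3.76 and 8.98, had the largest decrease of the list on the log2(value + 1) scale, at a log2 fold change of -3.93 (adjusted p = 3.21e-06, limma). By edgeR the order turned, with Phf11b at -6.06, Gbp4 at -4.97 and Gbp9 at -4.09. The female-labelled values of Phf11b (0 to 0.380) and Gbp4 (0.0884 to 0.498) came from few reads and the size of their change is uncertain. Ifi27l2b had the largest increase, at 2.88 (adjusted p = 1.96e-06). Isg20, an RNA exonuclease, had values of 66.9, 65.9 and 67.9 against 14.1, 14.7 and 14.5. It was lower, and female-labelled replicate 6 had a ratio of 1.01 to the other 2 (log2 fold change -2.14, adjusted p = 7.77e-08, limma).

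In the authors' deposited table, 16 of the 48 genes have a false discovery rate under 0.05, all of them lower in female, where the share of all genes below that rate is 25.8% (13.8% lower in female). All 16 were also lower in limma, and 23 genes passed in limma but not in the authors' deposited table. The test behind that table is not given in the sources used here.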

How the data were processed

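Poly(A) RNA of 6 libraries was sequenced, per the labels' protocols. The submitters' processing notes name Bowtie2, RSEM, edgeR and the mouse build mm39, with no roles, and whether strand was used is not given in the sources used here. The deposited signal values, 1 column per library, are whole reads that the authors divided by 1 factor per library: dividing by what 1 read is worth gave whole numbers for 100% of values (tolerance 0.001 reads). The table also carries the authors' own comparison, per the file headers: a deposited score, which is a signed fold change, and a deposited p-value with its false discovery rate.

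As the values are normalised, limma 3.58.1 (R 4.3.3, eBayes with trend) was fitted across all genes on log2(value + 1), for genes of at least 1 in at least 3 libraries. Benjamini-Hochberg adjustment ran over 12568 genes and 0.05 was the threshold. The fit was tested on simulated reads. Alternatives were quantile normalisation, RLE factors, a pseudocount of 0.1, a minimum of 10 reads per library or no minimum, a replicate block, edgeR 4.0.16 (8975 genes called), DESeq2 1.42.0 and voom on recovered reads, a fold threshold, each library left out, and leaving out genes with at least 20% shared 50-base words.

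The genes and lists were chosen with earlier results of these data known, so no test over a list was made. Values in every library are given for receptors, factors and the largest absolute change in each role; other genes given so were chosen after their values were seen. Other pathway genes named are the largest changes in each direction or genes with a fixed role, and Socs3, Samhd1, Isg20, Phf11b and Gbp4 were named after their values were seen. Promoters are RefSeq windows on GRCm38.p6, matched by symbol, and 50-base words are from GENCODE M21 transcripts. Neither is the build the notes name, so they bear on sequence only.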

Additional observations from a re-analysis of the deposited data

How the results depend on the processing

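The count of genes lower in the female-labelled libraries was 37 of 47 and stayed between 36 and 41 with another filter, pseudocount, scaling, tool or left-out library (38 with edgeR, 38 with DESeq2, 41 with voom and 41 without female-labelled replicate 6). It was 42 without male-labelled replicate 4 and female-labelled replicate 6 together. It was 33 without the 4 genes that share sequence. The count of higher genes was 2, and 1 to 3 with 1 library left out. Requiring a change of at least 1 log2 unit left 29 lower and 0 higher (2 higher at the adjusted p alone, 2 by edgeR and 2 by DESeq2), and 2589 of the 8704 genes called in all. With 1 library left out, 7373 to 9113 genes were called in all, and the median log2 fold change of the 47 ran from -1.56 to -1.16.

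Of 752 recomputed fold changes of single genes, 724 kept their direction and side of the threshold, 18 newly passed, 5 no longer passed and 5 changed sign. For 37 of the 47 genes no alternative changed either. Trim25 ran from -0.063 to 0.37 with 1 library left out, being -0.063 and -0.053 without male-labelled replicates 5 and 6 and -0.016 without female-labelled replicate 6. Ifi27 was -0.0030 without male-labelled replicate 4, in a range up to 0.22. Ifit2 ran from 0.057 to 0.28 with 1 library left out and was -0.025 without male-labelled replicate 4 and female-labelled replicate 6 together. None of the 5 values of changed sign passed the threshold, and beyond the samples left out the cause was not tested.

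Libraries of the same replicate number did not tend to deviate together. The correlation over genes between the 2 libraries of a number, each taken less its group mean, was -0.09, -0.03 and -0.17 for replicates 4, 5 and 6. These values cannot decide whether the libraries were paired in the experiment, since each group mean rests on 3 libraries. Under the replicate block, the count of lower genes was 38, that of higher genes 2 and that of all genes called 8314, and Rsad2 passed (adjusted p = 0.0371, limma). The depth limits Mx1, whose female-labelled values rest on few reads, and 3 libraries in each group limit the precision of every SD.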
